A study of Homo sapiens with 9 samples.

Results

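Actin filaments grow at their barbed ends, and the 10 genes described here encode proteins that act there. They comprise 4 capping genes (CAPZA1, CAPZA2, CAPZB and CAPG) and 6 formin genes (DIAPH1, DIAPH2, DIAPH3, DAAM1, FHOD1 and FMNL2). The genes were taken by symbol from the 29972 rows of the deposited expression table, and all 10 were among the 13498 genes that passed the filter on low values. Their values were read in H2030, a human cell line established from non-small cell lung cancer and grown in serum-containing medium. Each group was given siRNA at 20 nmol/L by a lipid reagent. The siMENA11a group received a mix of 3 siRNAs against exon 11a of ENAH, an exon that only some ENAH transcripts carry. The siMENA group received a commercial pool against ENAH as a whole. The control group received a non-targeting pool, and all 3 groups therefore share transfection and reagent. Each group held 3 libraries of ribosome-depleted total RNA, and the labels do not say whether they came from separate cultures, so p-values cover the spread among libraries of a group, which could be technical in origin. H2030 is a single line.

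Heterodimers of an alpha subunit (CAPZA1 or CAPZA2) and the beta subunit (CAPZB) form capping protein, which binds the barbed end and stops the addition and loss of actin. CAPG, a relative of gelsolin, caps barbed ends in a calcium-dependent way but does not sever filaments. Formins bind the same end through their FH2 domains, stay attached while it grows, and take profilin-bound actin through their FH1 domains. ENAH encodes hMENA, an Ena/VASP protein that also protects growing barbed ends from capping. Many formins are held inactive by contact between their own ends until an activator binds.

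Levels are given as scaled TPM, which is TPM (transcript abundance per length, relative to the library's total) divided by a size factor for each library. Size factors ranged from 0.886 to 0.973 in siMENA11a, from 1.06 to 1.09 in siMENA and from 0.995 to 1.04 in control libraries. The RN7SL RNAs took 44.3% to 45.2% of the deposited TPM in siMENA11a, 39.6% to 40.6% in siMENA and 39.7% to 41.1% in control libraries. The part of this difference in the results was examined only by an alternative scaling. That scaling left these and other small and structured RNAs out of the total. Log2 fold changes are differences of group means of log2(scaled TPM + 0.5), with standard errors, and were tested with limma over all tested genes. A gene was called higher or lower where its p, adjusted by Benjamini and Hochberg over those genes, was under 0.05. TPM keeps no read depth, so no counting error can be attached to a value. In these bulk samples, fewer cells expressing a gene and less RNA per cell cannot be told apart.

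The targeted gene, ENAH, was low in siMENA libraries. It averaged 47.6 ± 1.01 scaled TPM in siMENA11a, 7.22 ± 0.306 in siMENA and 43.8 ± 0.770 in control libraries (SD, n = 3 each), a log2 fold change of 0.12 ± 0.038 for siMENA11a (limma adjusted p = 0.0247) and -2.52 ± 0.038 for siMENA (limma adjusted p = 4.98e-10). The difference for siMENA11a was -0.014 and not called on TPM as deposited (limma adjusted p = 0.863). This value sums all ENAH transcripts and does not measure exon 11a. Of 6 epithelial markers, KRT8 (87.3 to 99.8 scaled TPM) and KRT18 (207.9 to 259.5) were high in all 9 libraries, while CDH1 and KRT19 did not exceed 0.129 and 0.0501. KRT7 averaged 15.8 in siMENA11a, 4.32 in siMENA and 9.93 in control libraries, and EPCAM averaged 2.90 in siMENA11a, 3.10 in siMENA and 1.46 in control libraries. The 6 summed to 315.2 to 329.2 in siMENA11a, 311.9 to 331.3 in siMENA and 355.8 to 368.0 in control libraries.

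Of 4 leukocyte markers, PTPRC did not exceed 0.066 and CD3E was listed at 0 in every library. CD68 averaged 126.8 in siMENA11a, 44.9 in siMENA and 98.9 in control libraries, and CD14 averaged 1.85 in siMENA11a, 0.817 in siMENA and 1.26 in control libraries. Of 6 fibroblast and endothelial markers, COL1A1 averaged 6.38 in siMENA11a, 14.6 in siMENA and 7.72 in control libraries, and the other 5 did not exceed 0.0903. The part of these markers in the results was not tested.

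An siRNA can lower transcripts that match only its seed, a short word near the 5′ end of its guide strand, most often in the 3′ UTR. The siRNA sequences themselves were not used here. The 63-base coding exon of ENAH is shown because the siMENA11a mix was directed at exon 11a. Its capitals mark the word CCAAGGA and, overlapping it by all but its first base, CAAGGAA. The 3′ UTR sites are shown with CAAGGAA in capitals, from GENCODE 29 transcripts on GRCh38. RHOA is not among the 10 genes, and its values are described with the formin regulators. It is the only one of those regulators whose sites were listed, and the one that fell most under siMENA11a. Its sites therefore support no result.
ENAH exon, chr1:225504991-225505053, minus strand: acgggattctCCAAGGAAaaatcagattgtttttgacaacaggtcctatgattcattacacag
DIAPH1, chr5:141515980-141516002, minus strand: tctgtctaCAAGGAAatgggagg
DIAPH3, chr13:59665678-59665700, minus strand: aagtgtttCAAGGAAagttttcc
FMNL2, chr2:152648693-152648715, plus strand: gtgccttgCAAGGAAgtttacta
RHOA, chr3:49359940-49359962, minus strand: cgctaattCAAGGAAtttcttaa

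Both words had been picked in earlier work on these data because their carriers fell most under siMENA11a, so they support no result here. CAAGGAA occurred on the transcript strand in 13.9% of the 3′ UTRs of 11308 tested genes, and either word in 20.6%. Of the 10 capping and formin genes, 3 carried a word. Under siMENA11a, relative to control, the log2 fold change was -1.10 for DIAPH1, -0.56 for DIAPH3 and 0.17 for FMNL2. CAPZA1, with the largest fall of the 10, carried neither word in its 3′ UTR. Upstream of the 3′ UTR, CCAAGGA occurred in DIAPH1 (3 copies) and in CAPZA1, DIAPH2, DIAPH3, DAAM1, FHOD1 and FMNL2 (1 copy each), and CAAGGAA in DIAPH2. The share over all tested genes was taken for 3′ UTRs only, so these upstream words have no background to be read against. A matching word is a description of the sequence, and its part in these changes was not tested.

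A second set of 4 words had been picked in the same way for the siMENA pool, so its words too support no result here. Its members were CAGAATA with the overlapping AGAATAA, and the rarer CAGCGTA with the overlapping AGCGTAA. At least 1 of the 4 occurred in 24.7% of the 3′ UTRs searched. The count in the 10 genes was near that share, at 3, namely CAPZA1, CAPZA2 and CAPZB. The sites are shown with the word in capitals.
CAPZA1, chr1:112671249-112671271, plus strand: tgtaatctCAGAATAcacaggtg
CAPZA2, chr7:116919917-116919939, plus strand: tgatggcaCAGAATAgtctttta
CAPZB, chr1:19339366-19339388, minus strand: tctccctgAGAATAAagccgata
RHOA, chr3:49359152-49359174, minus strand: ctactaatAGAATAAaggcagtt
The 3 subunits differed in what they did under siMENA, relative to control, with log2 fold changes of -0.69 for CAPZA1, 0.08 for CAPZA2 and -0.16 for CAPZB. Of these, CAPZA1 and CAPZB passed the test and CAPZA2 did not. Upstream of the 3′ UTR, AGAATAA also occurred in CAPZA1, and CAGAATA in DIAPH3, again without a share over all tested genes. The part of these words in the changes was not tested.

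Comparing siMENA11a with control, 3 of the 10 genes were called higher (CAPZA2, FHOD1 and FMNL2) and 4 lower (CAPZA1, CAPG, DIAPH1 and DIAPH3). Over all tested genes 27.9% were called higher and 27.7% lower, 55.6% in all. CAPZA1 and DIAPH1 had the largest differences, both lower by more than 1 on the log2 scale. Only 186 genes, 1.38% of those tested, were called lower by at least that much. The median log2 fold change of the 10 genes was -0.07, against 0.01 over all tested genes. The 2 groups did not overlap for 8 of the 10 genes, against 62.9% of all tested genes. On TPM as deposited, 0 of the 10 genes were called higher and 5 lower, with CAPZB added to the lower ones.

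Comparing siMENA with control, 1 of the 10 genes was called higher (FMNL2) and 7 lower (CAPZA1, CAPZB, CAPG, DIAPH1, DIAPH3, DAAM1 and FHOD1). Over all tested genes 23.7% were called higher and 25.8% lower, 49.4% in all. Most of these differences were small, with 6 of 10 log2 fold changes under 0.25 in size. The median was -0.18, against 0.01 over all tested genes, and 9 of the 10 genes did not overlap between the groups, against 57.6% of all tested genes. The counts of genes in this comparison depended on how the libraries were scaled, with 2 higher and 4 lower on TPM as deposited and 2 higher and 3 lower when small and structured RNAs were left out of the total.

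Setting siMENA11a directly against siMENA, 3 genes were called higher (CAPZB, DAAM1 and FHOD1) and 3 lower (CAPZA1, DIAPH1 and DIAPH3). The background in this comparison was 29.5% called higher and 29.2% lower, 58.7% in all, and the groups did not overlap for 6 of the 10 genes against 65.1% of all tested genes. On TPM as deposited, 1 gene was called higher and 6 lower, and the median over all tested genes was -0.20, so the small differences of this comparison are relative to the scaling. Both comparisons with control use the same control libraries.

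**Figure D1:**
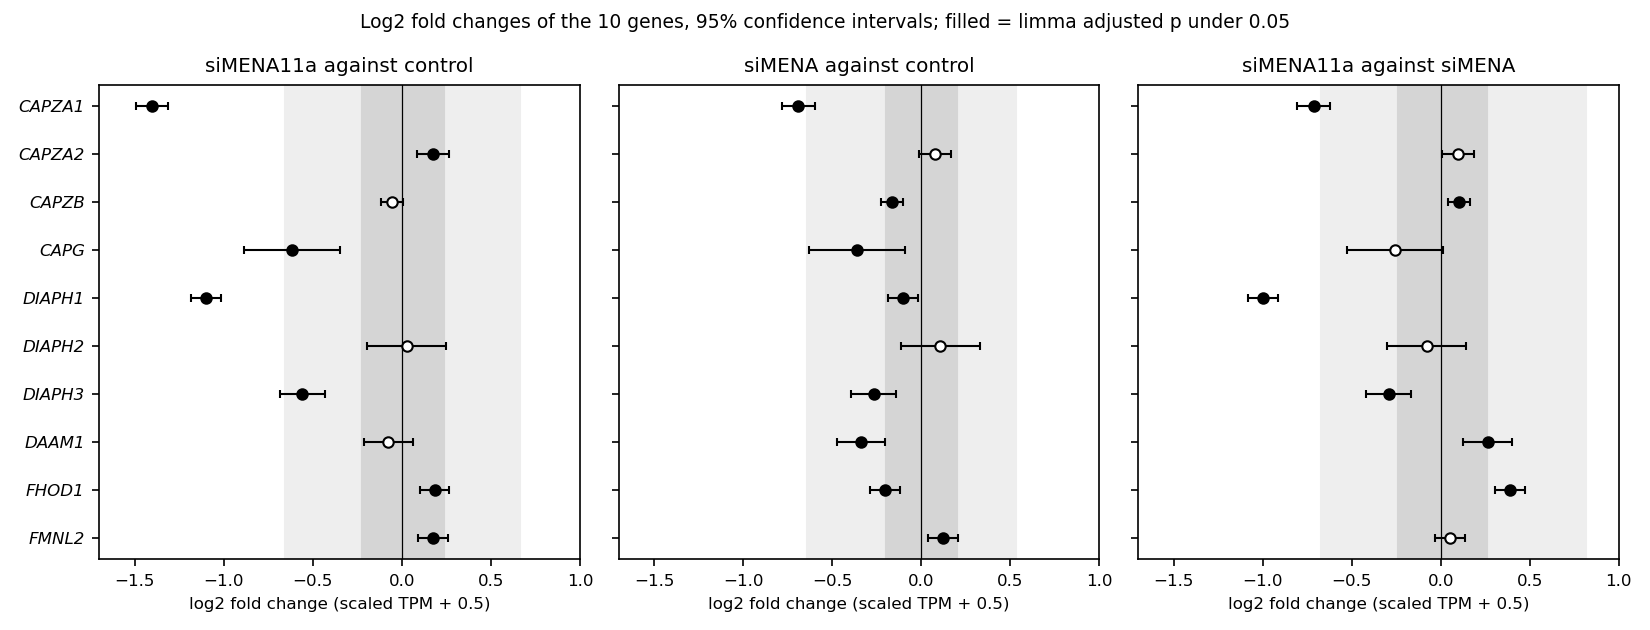
Log2 fold changes of the 10 genes in the 3 comparisons, with 95% confidence intervals as bars. Filled points passed the limma test, the dark and light grey bands hold the middle 50% and 90% of all tested genes. CAPZA1 and DIAPH1 lie far to the left of both bands for siMENA11a against control, at -1.40 and -1.10, and the other 8 genes lie within the light band in that panel.

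CAPZA1, an alpha subunit of capping protein, stepped down across the groups. It was at 36.9, 38.2 and 35.0 scaled TPM in siMENA11a, at 58.5, 62.1 and 60.8 in siMENA, and at 100.8, 98.0 and 94.98 in control libraries. No library of a group reached the range of another, and siMENA lay between siMENA11a and control. The level was 2.65-fold lower in siMENA11a than in control, a log2 fold change of -1.40 ± 0.040 (limma adjusted p = 2.57e-08), and only 0.548% of tested genes had a lower value. Under siMENA it was lower than control by -0.69 ± 0.040 on the log2 scale (limma adjusted p = 1.40e-06), and siMENA11a lay below siMENA by -0.71 ± 0.040 (limma adjusted p = 5.29e-07). All 3 calls were kept under each of the 20 alternative settings.

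CAPZA2, the other alpha subunit, did not share this fall. It was at 48.8, 49.2 and 46.0 scaled TPM in siMENA11a, at 46.2, 43.5 and 44.8 in siMENA, and at 43.5, 43.2 and 40.7 in control libraries. The siMENA11a libraries were all above the control libraries, while the siMENA libraries ran from just above the highest control library into the bottom of the siMENA11a range. The rise under siMENA11a was 0.18 ± 0.040 on the log2 scale (limma adjusted p = 0.00475), and on TPM as deposited it was 0.04 and not called (limma adjusted p = 0.476). The difference between siMENA and control was 0.08, with a 95% interval of -0.01 to 0.17 (limma adjusted p = 0.140), and it was called under 3 other scalings, with up to 0.20. Without siMENA11a library 3 or without control library 3 the difference between siMENA11a and siMENA, 0.10 (limma adjusted p = 0.0636), was called at 0.13 (0.0295) and 0.10 (0.0489).

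CAPZB encodes the beta subunit, which pairs with either alpha subunit. It was at 121.4, 120.5 and 120.7 scaled TPM in siMENA11a, at 113.1, 112.0 and 112.1 in siMENA, and at 122.0, 128.0 and 127.7 in control libraries. The siMENA libraries were the lowest, and siMENA11a sat just under control library 1. The difference from control was -0.06 for siMENA11a, with a 95% interval of -0.12 to 0.0035 (limma adjusted p = 0.0989), and -0.16 ± 0.028 for siMENA (limma adjusted p = 0.000992). Leaving out control library 1 gave -0.08 for siMENA11a (limma adjusted p = 0.0412), and TPM as deposited gave -0.19 (limma adjusted p = 0.00662). The call for siMENA was lost under the 3 other scalings, where the log2 fold change was between -0.08 and -0.04. siMENA11a lay above siMENA by 0.10 on the log2 scale (limma adjusted p = 0.00903), a call held under none of the 3 other scalings. There the difference was -0.11 on TPM as deposited (limma adjusted p = 0.0616), 0.04 by quantiles (0.277) and 0.07 when small and structured RNAs were left out of the total (0.0832).

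Ratios of TPM within a library do not depend on its size factor, and they set the alpha subunits side by side. CAPZA1 made up 43.3 ± 0.339% of the summed alpha subunit TPM in siMENA11a, 57.4 ± 1.46% in siMENA and 69.8 ± 0.307% in control libraries (SD, n = 3 each). CAPZA2 was therefore the more abundant alpha transcript in siMENA11a libraries, and CAPZA1 was in siMENA and control libraries. The summed alpha level was 84.7 ± 3.30 scaled TPM in siMENA11a, 105.3 ± 0.556 in siMENA and 140.4 ± 4.35 in control libraries. The ratio of summed alpha to beta transcripts was 0.701 ± 0.0272 in siMENA11a, 0.937 ± 0.0101 in siMENA and 1.12 ± 0.0610 in control libraries, with no overlap between any 2 groups. These shares and ratios are descriptions and were not tested.

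CAPG was the least abundant of the capping genes. It was at 3.88, 4.85 and 3.13 scaled TPM in siMENA11a, at 4.82, 4.52 and 4.91 in siMENA, and at 6.22, 5.99 and 6.54 in control libraries. Both siRNA groups lay below control, and siMENA11a library 2 lay within the siMENA range. The log2 fold change was -0.62 ± 0.12 under siMENA11a (limma adjusted p = 0.00175) and -0.36 ± 0.12 under siMENA (limma adjusted p = 0.0305). The call for siMENA was lost in 9 of 19 alternatives, among them each of the 6 that left out a siMENA or control library, with adjusted p from 0.0515 without control library 2 to 0.0868 without siMENA library 2. The difference of -0.26 between siMENA11a and siMENA was not called (limma adjusted p = 0.0937) but was -0.40 without siMENA11a library 2 (limma adjusted p = 0.00597). It was also called on TPM as deposited, at -0.45 (limma adjusted p = 0.00388). Leaving small and structured RNAs out of the total gave -0.31 (limma adjusted p = 0.0491).

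**Figure D2:**
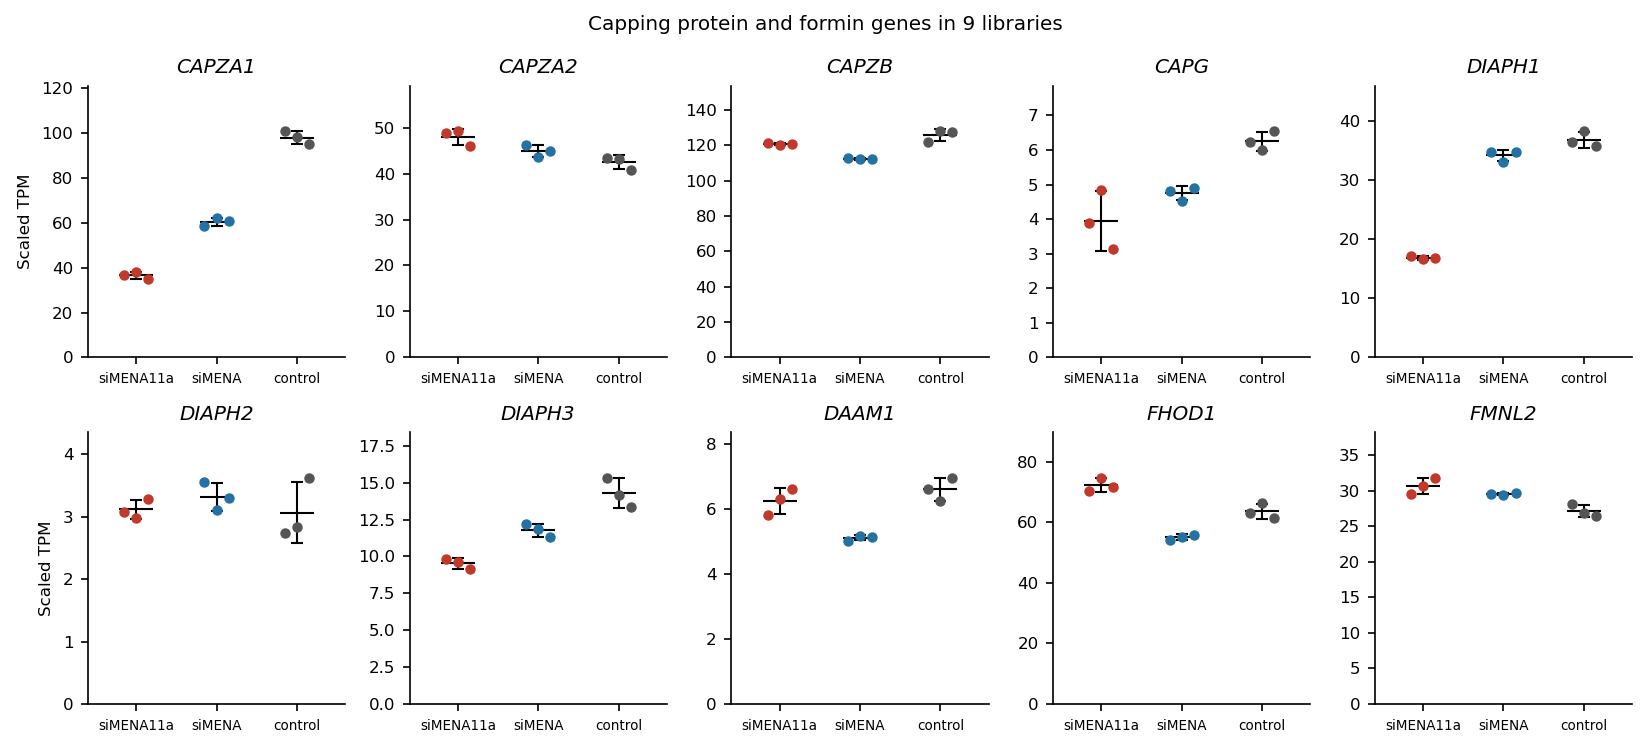
Scaled TPM of each of the 10 genes in the 9 libraries, with siMENA11a, siMENA and control from left to right in each panel, points for libraries and lines for means with SD. CAPZA1 falls in 2 steps, DIAPH1 is low in siMENA11a alone, and DIAPH2 overlaps in all groups.

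DIAPH1, a diaphanous-related formin activated by RHOA, separated siMENA11a from both other groups. It was at 17.2, 16.6 and 16.8 scaled TPM in siMENA11a, at 34.8, 33.1 and 34.7 in siMENA, and at 36.4, 38.3 and 35.7 in control libraries. The siMENA11a libraries had far lower levels than any other library, and siMENA lay just under control without overlap. The log2 fold change was -1.10 ± 0.037 for siMENA11a against control (limma adjusted p = 6.11e-08), with 1.16% of tested genes below it, and -0.999 ± 0.037 for siMENA11a against siMENA (limma adjusted p = 5.12e-08). Both calls were kept under each of the 20 alternatives. The difference between siMENA and control, -0.10 ± 0.037 (limma adjusted p = 0.0429), was not called in 13 of 20 alternatives and was 0.01 in another. Without any of the 9 libraries except control library 3 its adjusted p lay between 0.0507 (without siMENA11a library 1) and 0.151 (without control library 2), with log2 fold changes of -0.10 and -0.08 in those cases.

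DIAPH3, a diaphanous-related formin known for filopodia and for cytokinesis, fell in both siRNA groups. It was at 9.81, 9.63 and 9.14 scaled TPM in siMENA11a, at 12.2, 11.9 and 11.3 in siMENA, and at 15.3, 14.2 and 13.4 in control libraries. The 3 groups did not overlap and kept the order of CAPZA1. The log2 fold change was -0.56 ± 0.057 under siMENA11a (limma adjusted p = 3.03e-05), -0.27 ± 0.057 under siMENA (limma adjusted p = 0.00353) and -0.29 ± 0.057 for siMENA11a against siMENA (limma adjusted p = 0.00151). Each of these calls was kept under all 20 alternatives.

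DIAPH2, the remaining diaphanous formin, was the least abundant of the 6 formins and was called in none of the 3 comparisons. It lay between 2.98 and 3.29 scaled TPM in siMENA11a, between 3.11 and 3.55 in siMENA, and between 2.74 and 3.63 in control libraries. The 3 ranges overlapped. Its log2 fold change from control was 0.03 for siMENA11a, with a 95% interval of -0.20 to 0.25 (limma adjusted p = 0.834), and 0.11 for siMENA, with an interval of -0.12 to 0.33 (limma adjusted p = 0.409). Between siMENA11a and siMENA the difference was -0.08, with an interval of -0.30 to 0.14 (limma adjusted p = 0.525), and it was called lower on TPM as deposited at -0.27 (limma adjusted p = 0.0487).

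DAAM1, a formin that binds Dishevelled in planar cell polarity signalling, was low in siMENA. It was at 5.82, 6.30 and 6.61 scaled TPM in siMENA11a, at 5.03, 5.16 and 5.14 in siMENA, and at 6.61, 6.25 and 6.96 in control libraries. The siMENA libraries lay below all others, and siMENA11a overlapped control. Its log2 fold change was -0.34 ± 0.060 for siMENA against control (limma adjusted p = 0.00128), a call kept under all 20 alternatives. For siMENA11a against control it was -0.08, with an interval of -0.21 to 0.06 (limma adjusted p = 0.310), and for siMENA11a against siMENA it was 0.26 (limma adjusted p = 0.00403), which dropped to 0.06 on TPM as deposited (limma adjusted p = 0.504).

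FHOD1, a formin that binds and bundles filaments of stress fibres, was the most abundant of the 6 formins and moved in opposite directions in the 2 siRNA groups. It was at 70.3, 74.7 and 71.7 scaled TPM in siMENA11a, at 54.0, 55.2 and 55.9 in siMENA, and at 63.1, 66.2 and 61.3 in control libraries. No group overlapped another, with siMENA11a above and siMENA below control. The log2 fold change was 0.18 ± 0.037 for siMENA11a (limma adjusted p = 0.00217) and -0.21 ± 0.037 for siMENA (limma adjusted p = 0.00138), and siMENA11a lay above siMENA by 0.39 ± 0.037 (limma adjusted p = 1.38e-05). The difference between the siRNA groups was called under all 20 alternatives. On TPM as deposited the values against control were 0.05 for siMENA11a and -0.12 for siMENA, and neither was called (limma adjusted p = 0.493 and 0.115), nor was siMENA called under the 2 remaining scalings (-0.09 in both).

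FMNL2, a formin of lamellipodia and filopodia that is recruited to membranes through a lipid anchor and CDC42, was slightly higher in both siRNA groups. It was at 29.5, 30.6 and 31.8 scaled TPM in siMENA11a, at 29.5, 29.4 and 29.6 in siMENA, and at 28.1, 26.8 and 26.4 in control libraries. All 6 siRNA-treated libraries were above the 3 control libraries, and the siRNA groups met at 29.5. It differed from control by 0.17 ± 0.038 on the log2 scale under siMENA11a (limma adjusted p = 0.00339; 0.04 and not called on TPM as deposited, adjusted p = 0.591) and 0.12 ± 0.038 under siMENA (limma adjusted p = 0.0229). The siMENA call was lost without siMENA library 1 (0.12, adjusted p = 0.0517), siMENA library 3 (0.12, 0.0575), control library 2 (0.11, 0.0658) or control library 3 (0.10, 0.0677).

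The 6 formins summed to 138.6 ± 2.64 scaled TPM in siMENA11a, 139.0 ± 1.08 in siMENA and 151.4 ± 3.63 in control libraries. Their make-up differed more than their sum. DIAPH1 made up 12.2 ± 0.446% of the sum in siMENA11a, 24.6 ± 0.531% in siMENA and 24.3 ± 0.447% in control libraries. FHOD1 made up 52.1 ± 0.818% in siMENA11a, 39.6 ± 0.672% in siMENA and 42.0 ± 0.756% in control libraries. It thus held most of the TPM summed over these 6 formins in siMENA11a libraries alone. The sum leaves out other formins, among them INF2 and FMNL1, which averaged 26.4 and 25.5 scaled TPM in siMENA11a libraries. FMNL2 made up 22.1 ± 0.632% in siMENA11a, 21.3 ± 0.0954% in siMENA and 17.9 ± 0.561% in control libraries. DIAPH3 held between 6.56% and 10.1% in each library, DAAM1 between 3.61% and 4.75%, and DIAPH2 between 1.80% and 2.55%. TPM is per transcript length, so these shares compare transcripts and not proteins.

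**Figure D3:**
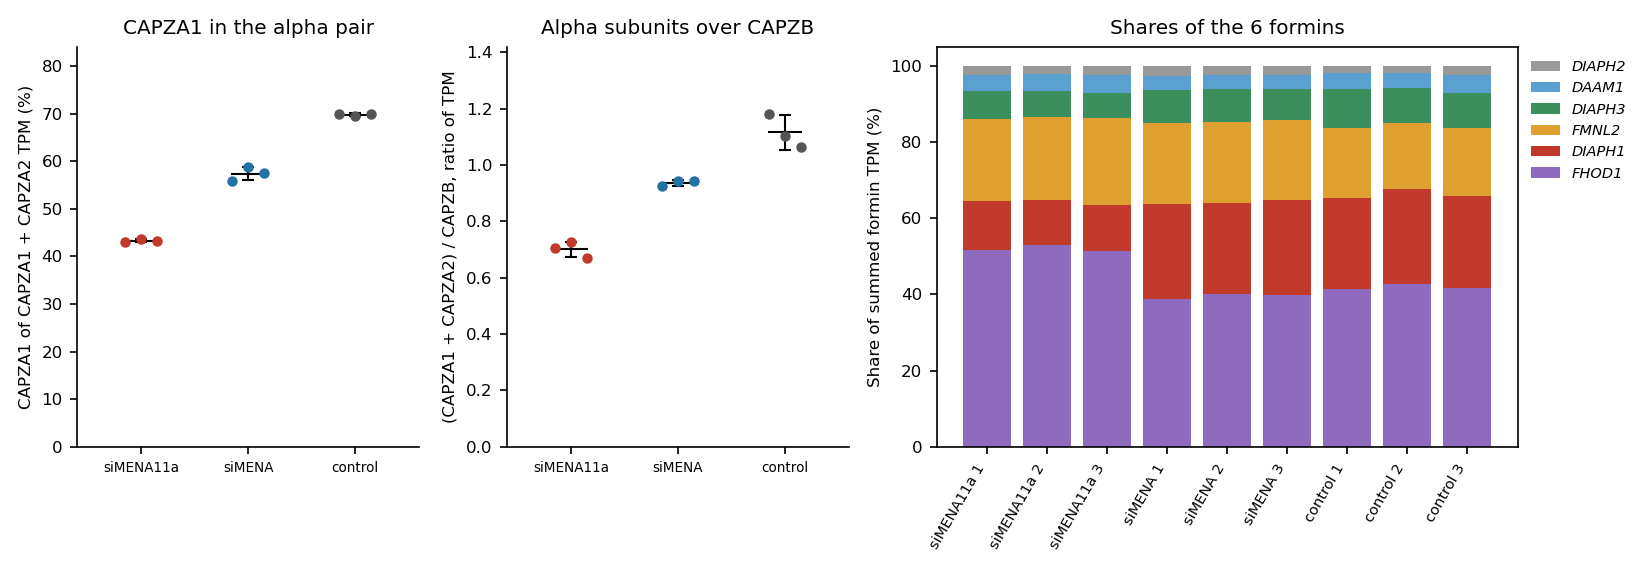
CAPZA1 as a percentage of the summed alpha pair, the ratio of the alpha pair to CAPZB, and the percentage of each formin in the summed formin TPM, for each library. In each panel siMENA11a, siMENA and control libraries run from left to right. CAPZA1 holds 43.3% of the alpha pair in siMENA11a against 69.8% in control on average, and DIAPH1 holds 12.2% of the formin sum in siMENA11a against 24.3% in control.

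The 7 lists of related genes held 78 entries, all in the table. Of the 5 tested formins outside the 10 described above, 4 fell in siMENA11a and 4 in siMENA, and 0 rose, relative to control. Over all tested genes, 27.9% were called higher and 27.7% lower in siMENA11a, and 23.7% higher and 25.8% lower in siMENA. INF2, a formin that also severs filaments, was lower by -0.41 in siMENA11a and -0.47 in siMENA, and FHOD3, known from heart sarcomeres, by -0.66 in siMENA11a and -0.56 in siMENA. FMNL1 was lower by -0.29 in siMENA11a and -0.27 in siMENA. FMNL3 fell by 0.75 in siMENA11a, and FMN2 fell by 0.37 in siMENA, though not on TPM as deposited (limma adjusted p = 0.0601). The list's median log2 fold change was -0.41 in siMENA11a and -0.37 in siMENA, against 0.01 over all tested genes in both, and no formin of the list was called higher under any of the 4 scalings.

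Proteins that regulate or partner formins moved in both directions, with 4 of 23 called higher and 10 lower in siMENA11a and 8 higher and 10 lower in siMENA, each against control, beside a background of 27.9% higher and 27.7% lower in siMENA11a and 23.7% higher and 25.8% lower in siMENA. The balance rested on the scaling, with 1 higher and 11 lower in siMENA11a on TPM as deposited and 8 higher and 6 lower when small and structured RNAs were left out, and 9 higher and 4 lower in siMENA on TPM as deposited. RHOA, the GTPase that activates DIAPH1, had the largest fall of the list. It was at 63.4, 57.8 and 55.0 scaled TPM in siMENA11a, at 190.8, 188.4 and 197.4 in siMENA, and at 223.9, 229.2 and 226.6 in control libraries. The siMENA11a libraries stood far below the rest, as they did for DIAPH1. RHOA differed from control by -1.94 ± 0.047 on the log2 scale in siMENA11a (limma adjusted p = 8.28e-09) and by -0.24 ± 0.047 in siMENA (limma adjusted p = 0.00252), which became -0.03 and was not called under quantile normalisation (limma adjusted p = 0.612).

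Other genes of the list differed in pattern. RHOB, an endosomal relative of RHOA, was at 11.6, 13.1 and 11.9 scaled TPM in siMENA11a, at 40.0, 37.0 and 35.9 in siMENA, and at 23.4, 22.3 and 23.7 in control libraries, so that it lay below control in siMENA11a and above it in siMENA. Its log2 fold change was -0.90 for siMENA11a (limma adjusted p = 1.56e-06) and 0.69 for siMENA (limma adjusted p = 1.09e-05). RHOC fell in both, by 0.38 in siMENA11a and by 0.61 in siMENA. CDC42, which recruits FMNL2, rose by 0.18 in siMENA11a and by 0.30 in siMENA. On TPM as deposited its rise in siMENA11a was 0.05 and not called (limma adjusted p = 0.362). ROCK2, a kinase downstream of RHOA that phosphorylates FHOD1 family members, fell by 0.70 in siMENA. SPIRE1, an actin nucleator that works with FMN formins, rose by 0.47 in siMENA11a and fell by 0.23 in siMENA.

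Both cytoplasmic actins fell in both siRNA groups. ACTB differed from control by -0.54 in siMENA11a and -0.61 in siMENA, and ACTG1 by -0.64 in siMENA11a and -0.58 in siMENA. PFN1, the main profilin, which delivers actin to formins, fell by 0.16 in siMENA11a and by 0.32 in siMENA, neither of which was called under quantile normalisation (limma adjusted p = 0.0689 and 0.192), while PFN2 rose by 0.27 in siMENA11a and fell by 0.23 in siMENA. Of these 4 genes, 1 was called higher and 3 lower in siMENA11a, and 0 higher and 4 lower in siMENA, beside 27.9% higher and 27.7% lower of all tested genes in siMENA11a and 23.7% higher and 25.8% lower in siMENA.

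Of 7 tested partners of capping protein, 2 were called higher and 2 lower in siMENA11a, and 1 higher and 5 lower in siMENA, against control. The siMENA11a counts are near the background of 27.9% higher and 27.7% lower, and the background in siMENA was 23.7% higher and 25.8% lower. SH3KBP1 (CIN85), an adaptor that binds capping protein, rose by 0.31 in siMENA11a and fell by 0.98 in siMENA. MTPN (myotrophin or V-1), which sequesters capping protein, rose by 0.14 in siMENA11a and fell by 0.54 in siMENA. The twinfilins, which bind actin monomers and capping protein, fell in both, TWF1 by 0.17 in siMENA11a and by 0.34 in siMENA, TWF2 by 0.18 in siMENA11a and by 0.63 in siMENA. The counts depended on the scaling. In siMENA11a they were 0 higher and 2 lower on TPM as deposited. When small and structured RNAs were left out of the total, with 9 genes tested, they were 4 higher and 0 lower. In siMENA they were 1 higher and 4 lower on TPM as deposited and 0 and 5 by quantiles. Without small and structured RNAs they were 3 higher and 4 lower in siMENA.

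Capping protein is also a part of the dynactin complex and of the WASH complex. Of 9 dynactin genes, 5 were called higher and 0 lower in siMENA11a, and 2 higher and 4 lower in siMENA, where the balance turned under the 3 other scalings (3 higher and 2 lower on TPM as deposited, 4 and 3 by quantiles, 5 and 2 without small and structured RNAs). The background was 27.9% higher and 27.7% lower in siMENA11a and 23.7% higher and 25.8% lower in siMENA. DCTN6 rose by 0.33 in siMENA11a and fell by 0.63 in siMENA, and DCTN4 rose by 0.28 in siMENA11a and fell by 0.22 in siMENA. DCTN5 rose in both, by 0.28 in siMENA11a and by 0.24 in siMENA. ACTR10 rose by 0.30 in siMENA11a. Its difference of 0.05 in siMENA was not called (limma adjusted p = 0.329), but was 0.13 and called on TPM as deposited (limma adjusted p = 0.0367). On TPM as deposited DCTN6, DCTN4 and DCTN5 were not called in siMENA11a, nor DCTN4 in siMENA. Of 6 WASH complex genes, 4 were called higher and 0 lower in siMENA11a, and 1 higher and 2 lower in siMENA, with KIAA1033 (WASHC4) 0.22 above control in siMENA11a and 0.35 below it in siMENA. FAM21A lay above control in both, by 0.17 in siMENA11a and by 0.35 in siMENA. The direction for these 2 complexes in siMENA11a rested on the scaling, since on TPM as deposited 1 dynactin gene was called higher and 3 lower, and 0 WASH genes higher and 1 lower. In siMENA, 2 WASH genes were called higher and 1 lower on TPM as deposited, 1 and 1 by quantiles, and 3 and 1 without small and structured RNAs.

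Of the 12 tested genes of the gelsolin, EPS8, adducin and tropomodulin families, which cap or sever filaments in other ways, 4 were called higher and 2 lower in siMENA11a, and 3 higher and 3 lower in siMENA, beside the background of 27.9% higher and 27.7% lower in siMENA11a and 23.7% higher and 25.8% lower in siMENA. On TPM as deposited the counts were 3 higher and 3 lower in siMENA11a and 4 higher and 2 lower in siMENA, and without small and structured RNAs, with 13 genes tested, 6 higher and 1 lower in siMENA11a and 6 higher and 2 lower in siMENA. TMOD3, a tropomodulin that caps pointed ends, rose by 0.84 ± 0.031 in siMENA11a (limma adjusted p = 8.82e-08) and fell by 0.59 ± 0.031 in siMENA (limma adjusted p = 8.38e-07). EPS8, which caps barbed ends, rose by 0.56 in siMENA11a and by 0.25 in siMENA. ADD2, an adducin, fell by 0.41 in siMENA11a, and TMOD2 fell by 0.34 in siMENA11a and by 0.53 in siMENA.

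**Figure D4:**
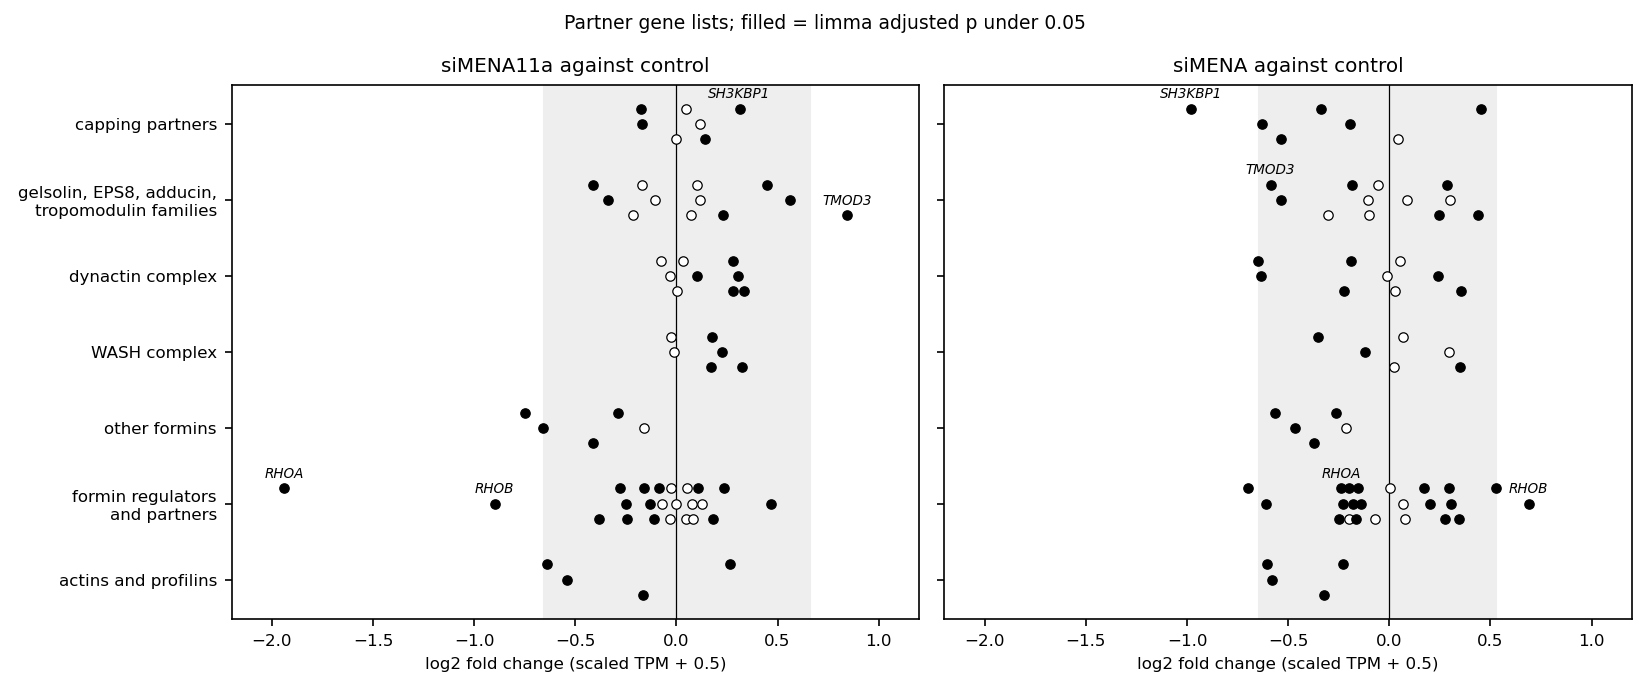
Log2 fold changes of the tested genes of the 7 related lists in siMENA11a and siMENA against control, 1 point a gene. The light band holds the middle 90% of all tested genes. RHOA at -1.94 in siMENA11a lies farthest from 0, and the other formins have medians of -0.41 in siMENA11a and -0.37 in siMENA.

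Over the 9 libraries, each gene was compared with 8717 genes by Pearson's r of log2 values, as a description in which all genes share the same libraries and group differences. CAPZA1 was most like CDCA3 (r = 0.998) and RAD21 (r = 0.997), and DIAPH1 most like KIF1B (r = 0.999) and RITA1 (r = 0.998). The genes nearest to DIAPH3 were EBNA1BP2 (r = 0.995) and CDCA2 (r = 0.991), and those nearest to FHOD1 were TMBIM6 and DCTN4 (r = 0.989 for both). CAPZB was nearest to MTHFD2 (r = 0.980), CAPZA2 to DANCR (r = 0.967), CAPG to ELOF1 (r = 0.971), DAAM1 to TGFB1 (r = 0.982) and FMNL2 to PPP1R12A (r = 0.984). DIAPH2, whose groups overlapped, had no neighbour among the compared genes above 0.910, the value for MAP2K5.

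The use of strand in the authors' counting is not given in the sources used here, and some of these genes overlap others on the opposite strand. ST7L shares 624 exon bases with CAPZA1 and differed from control by -0.10 in siMENA11a and -0.19 in siMENA. MINOS1 shares 253 with CAPZB and differed by -0.34 in siMENA11a and -0.01 in siMENA. SLC9A5 shares 571 with FHOD1 and differed by -0.03 in siMENA11a and 0.42 in siMENA. It averaged 2.98 scaled TPM in siMENA11a, 4.27 in siMENA and 3.06 in control libraries. Of the 75-base words of each transcript, 1.83% of CAPZA1's and 0.626% of CAPZA2's also occur in transcripts of other genes, and none of the other 8 genes' do. CAPZA1 and CAPZA2 share none with each other.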

How the data were processed

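Per the labels' protocols, total RNA of the 9 H2030 samples was depleted of ribosomal RNA, made into stranded libraries and sequenced in pairs. The deposited table holds TPM, which the authors made; its name points to merged gene values of RSEM, and kallisto and GRCh37 are listed without a role, per the submitters' processing notes. The sources used here do not give the aligner or whether strand was used, and depth is unknown. The table's 9 value columns entered the fit, and 0 were left over.

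TPM was divided by median-of-ratios size factors over 12341 genes (mean TPM of at least 1, above 0 in every library). A mean scaled TPM of at least 0.5 was required. With limma 3.58.1 (R 4.3.3), log2(scaled TPM + 0.5) was fitted by group in a single model of the 9 libraries (eBayes, mean trend), and p-values were adjusted by Benjamini and Hochberg over 13498 genes, with a threshold of 0.05. The code was tested on simulated data. Alternatives were TPM as deposited, quantile normalisation, rescaling without small and structured RNAs, pseudocounts of 0.1 and 1, no filter and a filter of 5, fits on 2 groups, robust or without a trend, a replicate block, and leaving out each library. The genes and lists were chosen with earlier results of these data known. Named list genes are the called ones with the lowest adjusted p, at most 4 a list and comparison, of which some are given. Sequences are from GENCODE 29 (GRCh38), from the transcript with the longest coding sequence and then the longest 3′ UTR.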

Additional observations from a re-analysis of the deposited data

How the results depend on the processing

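Scaling moved the counts most. On TPM as deposited, the median log2 fold change over tested genes was -0.11 for siMENA11a, 0.09 for siMENA (both against control) and -0.20 for siMENA11a against siMENA. With siMENA11a against control, 1965 genes were then called higher (3770 as reported) and 0 of the 10 genes described. With siMENA against control, 2300 genes were called lower (3478 as reported), with 2 of the 10 higher and 4 lower. Setting siMENA11a against siMENA, 2030 genes were higher and 6321 lower (3984 and 3937 as reported), with 1 of the 10 higher and 6 lower. Quantile normalisation gave 2 higher and 4 lower of the 10 for siMENA. Rescaling without small and structured RNAs gave 5215 genes higher and 2316 lower for siMENA, with 2 of the 10 higher and 3 lower. The share of calls that were higher was 50.2% as reported, 28.6% on deposited TPM and 63.3% rescaled for siMENA11a, 47.9%, 63.4% and 69.2% for siMENA, and 50.3%, 24.3% and 45.4% between the siRNA groups.

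The sign turned for DIAPH2 in siMENA11a (0.03 as reported) with -0.086 on deposited TPM and -0.0499 by quantiles, and leave-one-out values ran from -0.037 (without control library 1) to 0.14 (without control library 3), with -0.018 without control library 2 and -0.0048 without siMENA11a library 3. It turned for CAPZB in siMENA11a (0.022 rescaled) and for DIAPH1 in siMENA (0.014 rescaled, adjusted p = 0.795). Between the siRNA groups on deposited TPM it turned for CAPZA2 (-0.12), CAPZB (-0.11) and FMNL2 (-0.16, adjusted p = 0.0380). Leaving out 1 library gave 0 to 1 of the 10 genes higher and 5 to 6 lower for siMENA. The cause of these changes was not tested.

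Replicate numbers showed no clear pairing of the libraries. Each gene's group mean was first subtracted from its log2 values. What remained correlated at -0.065 to 0.058 over the 9 same-numbered pairs of different groups. The 18 other pairs ran from -0.064 to 0.102. Whether same-numbered libraries share a culture or batch was not tested. With the replicate block, CAPG (-0.36, adjusted p = 0.0505) and DIAPH1 (-0.10, adjusted p = 0.0747) lost their calls in siMENA, and the block changed no other call of the 10 genes. CAPG and DIAPH2 have no value at the filter of 5.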
